A study of Mus musculus with 16 samples.

Results

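Polyamine transport was followed through 4 mouse genes, Atp13a2, Atp13a3, Slc3a2 and Slc18b1, chosen as a named list and matched to the Ensembl identifiers of the count table. All 4 were found among 32989 genes in the table, and all 4 passed the filter on low counts that left 19049 genes for testing. RNA came from organoid cultures of hair follicle stem cells (HFSCs) grown for 2 weeks in the 3D–3C system, started from epidermal cells of 4 C57BL/6J mice. The methods of the study give donors of both sexes in telogen, the resting phase of the hair cycle, for its cultures in general, and the sex and age of these 4 mice are not given in the sources used here. The cultures were left untreated (WT in the labels) or received N1-acetylspermidine (N1-AcSpd), a polyamine acetylated at the N1 position, for 72 h, and were sorted into integrin α6+/CD34- progenitors and α6+/CD34+ HFSCs. The 4 groups were WT CD34-, WT CD34+, N1AcSpd CD34- and N1AcSpd CD34+, each with 1 library from each of the 4 mice, 16 libraries in all. All 4 groups share the organoid culture, so none is freshly isolated skin. The N1-AcSpd concentration was not used here.

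Putrescine, spermidine and spermine are small polycations that every cell needs for translation and growth, and a cell sets their level by synthesis, acetylation, breakdown and transport. Most of the uptake system of mammalian cells runs through endosomes, from which P5B-type ATPases move polyamines across the membrane. Carriers of the solute carrier families act in exchange at the plasma membrane and in loading of vesicles. Acetylation, as in N1-AcSpd, lowers the charge of a polyamine and marks it for export or oxidation.

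The members differ in place and role. Atp13a2 (ENSMUSG00000036622, chr4:140986873-141007330, plus strand, GRCm38) encodes a P5B ATPase of late endosomes and lysosomes that exports polyamines from their lumen into the cytosol. Atp13a3 (ENSMUSG00000022533, chr16:30312423-30405975, minus strand) encodes a related P5B ATPase of recycling and early endosomes needed for polyamine uptake. Slc3a2 (ENSMUSG00000010095, chr19:8706882-8723369, minus strand) encodes the CD98 heavy chain, which carries several amino acid exchangers of the SLC7 family to the cell surface and was linked to polyamine export. Slc18b1 (ENSMUSG00000037455, chr10:23796986-23827968, plus strand) encodes the vesicular polyamine transporter. No other annotated gene overlapped any of the 4.

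The RefSeq table (GRCm38.p6) held start regions for 3 of the 4 members, which are shown so that the bases before their starts can be read beside their levels. Each line gives the 250 bases before the RefSeq start, 5′ to 3′ on the strand of the gene, with capitals marking the GC box GGGCGG or its reverse complement. The windows are chr4:140986671-140986920 for Atp13a2, chr19:8713898-8714147 for Slc3a2 and chr10:23796736-23796985 for Slc18b1.
Atp13a2: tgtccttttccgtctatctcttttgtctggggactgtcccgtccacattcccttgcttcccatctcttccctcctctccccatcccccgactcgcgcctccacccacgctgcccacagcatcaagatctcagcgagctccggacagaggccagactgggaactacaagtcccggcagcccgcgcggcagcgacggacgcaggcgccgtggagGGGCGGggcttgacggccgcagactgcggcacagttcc
Slc3a2: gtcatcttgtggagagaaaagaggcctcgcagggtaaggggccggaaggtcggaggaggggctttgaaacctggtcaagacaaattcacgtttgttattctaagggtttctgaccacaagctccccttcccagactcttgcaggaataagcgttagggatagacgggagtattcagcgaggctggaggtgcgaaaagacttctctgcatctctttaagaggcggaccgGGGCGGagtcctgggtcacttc
Slc18b1: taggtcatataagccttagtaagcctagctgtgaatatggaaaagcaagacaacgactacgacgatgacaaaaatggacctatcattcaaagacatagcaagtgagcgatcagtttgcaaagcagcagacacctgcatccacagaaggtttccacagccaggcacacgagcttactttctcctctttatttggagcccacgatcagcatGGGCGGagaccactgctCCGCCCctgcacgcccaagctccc
The Slc3a2 window lies inside the longest annotated form of its gene, which starts farther upstream. The Atp13a2 window runs past the annotated start of its gene at chr4:140986873. Its last bases, with the GC box, lie inside the annotated gene. Slc18b1 has 2 GC boxes, on opposite strands, and the other windows have 1 each. Among 32851 RefSeq windows of this length, 32.74% hold a GC box on either strand. None of the 3 windows holds CCAAT (in 33.85% of all windows), TATAAA (12.37%), CACGTG (6.02%), TTGCATCA (0.79%) or TGACGTCA (1.55%), searched on both strands. G and C make up 65.2% of the Atp13a2 window, 53.6% of the Slc3a2 window and 50% of the Slc18b1 window, against a median of 52.4% over all windows. These matches describe letters in these windows and say nothing about a factor.

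The libraries were read from the 3′ ends of mRNAs, with unique molecular identifiers (UMIs), short random tags that let each captured molecule be counted once. Libraries held between 15480075 and 29074855 UMIs. The sort marker Cd34 lay between 2.87 and 3.65 CPM (UMIs scaled to a common library size by the TMM method) in the CD34- libraries. It lay between 43.4 and 64.04 CPM in the CD34+ libraries, so each library met the CD34 part of its label. Itga6, the gene of integrin α6, ran from 58.1 to 68.8 CPM in WT CD34- and from 45.8 to 52.9 CPM in WT CD34+. Under N1-AcSpd it ran from 52.3 to 58.3 CPM and from 45.7 to 51.9 CPM. Of these 2 sort markers, edgeR called Cd34 higher and Itga6 lower in HFSCs in both conditions. Summed over 7 markers of differentiated keratinocytes, the level ran from 1027 to 1372 CPM in WT CD34- and from 295.2 to 320.3 CPM in WT CD34+ libraries. It ran from 1237 to 1562 CPM in N1AcSpd CD34- and from 309.5 to 399.4 CPM in N1AcSpd CD34+ libraries. Over all genes tested, 16.1% were called lower in untreated HFSCs and 16.8% under N1-AcSpd, while edgeR called 7 of 7 of these markers lower in both conditions. Each cell type effect below moves with these markers, and their part in it was not tested. The summed level of 4 basal keratinocyte markers ran from 6517 to 6898 CPM in WT CD34- and from 5780 to 6562 CPM in WT CD34+. Under N1-AcSpd it ran from 6450 to 6969 CPM in CD34- and from 5735 to 6522 CPM in CD34+ libraries. Of these 4 markers, edgeR called 1 higher and 1 lower in HFSCs in each condition. Over all genes tested, 16.1% were higher and 16.1% lower in untreated HFSCs, and 16.5% and 16.8% under N1-AcSpd. Of the immune markers, Cd3e, Lyz2 and Cd74 had at most 3 UMIs in any library and Ptprc at most 45, and each of 5 fibroblast markers had at most 22. Summed, the fibroblast markers ran from 0.301 to 0.952 CPM in WT CD34- and from 0.103 to 0.439 CPM in WT CD34+ libraries, and from 0.289 to 1.14 and from 0.0587 to 0.512 CPM under N1-AcSpd, with 1 of them tested and called lower in HFSCs. The melanocyte markers Tyrp1, Dct and Mlana had at most 23 UMIs a library, while Pmel had 144 to 297. The mast cell marker Cma1 had at most 7 UMIs, and the other mast cell markers on the list were absent from the count table. The endothelial marker Pecam1 had 29093 to 52666 UMIs in every library and was called lower in HFSCs in both conditions (log2 -0.13 in each). Whether these tags come from Pecam1 was not tested, and the other endothelial marker on the list was absent from the count table.

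In untreated cultures, mRNA of Atp13a2 and Slc3a2 was higher in α6+/CD34+ HFSCs than in α6+/CD34- progenitors, by 1.35 and 1.33 times. That of Atp13a3 was lower, at 0.714 of the progenitor level, and Slc18b1 did not pass the test. The 2 P5B ATPases thus moved in opposite directions between the fractions. Of the 4 members, 3 were called at an adjusted p under 0.05 by edgeR's quasi-likelihood test with Benjamini-Hochberg adjustment, against 32.1% of all genes tested. A share of this size among all genes means that a call in this comparison is common. The median log2 fold change of the members was 0.34, against 0.022 over all genes tested. In bulk samples such as these, fewer cells of a type and less RNA per cell cannot be told apart.

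**Figure D1:**
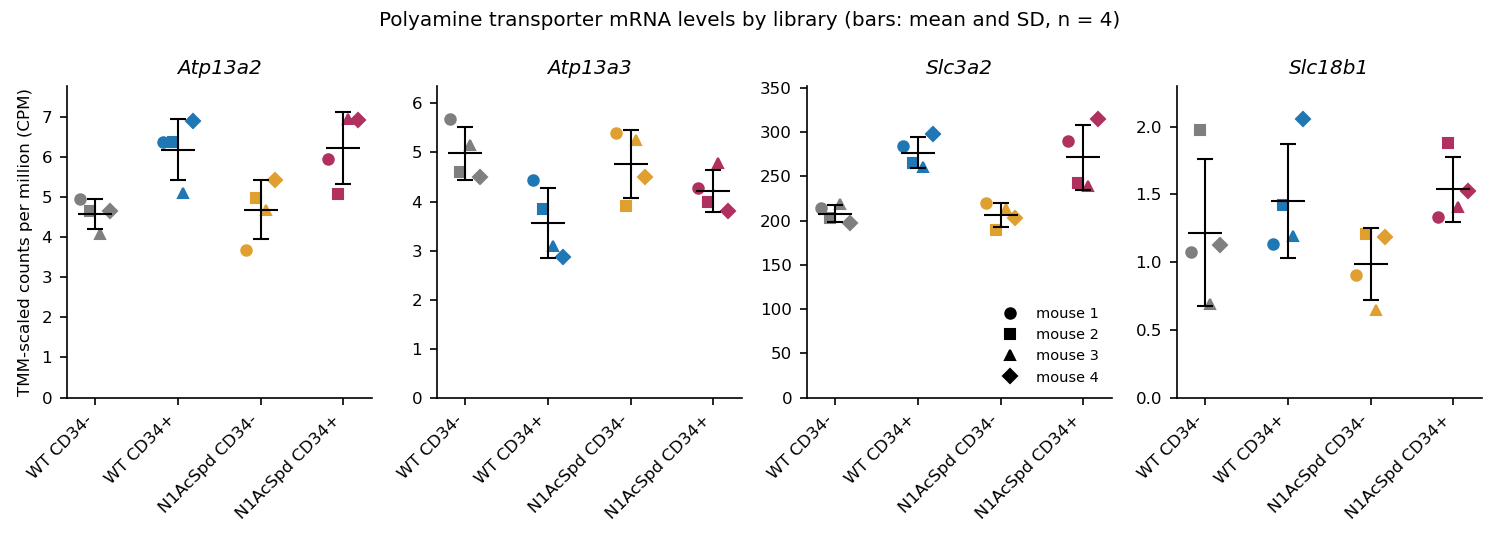
Levels of the 4 transporters in TMM-scaled CPM (y axis, linear from 0) in the 4 groups (x axis); points are libraries with 1 symbol per mouse, and bars give the mean and SD (n = 4). Slc3a2 lies at or above 238.9 CPM in all 8 CD34+ libraries and at or below 220.1 CPM in all 8 CD34- libraries, while Slc18b1 spreads from 0.646 to 2.05 CPM.

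Atp13a2 was measured at 4.94, 4.66, 4.07 and 4.64 CPM in the WT CD34- libraries of mice 1 to 4. In WT CD34+ it stood at 6.37, 6.36, 5.09 and 6.88 CPM in the same order. All 4 HFSC libraries lay above all 4 progenitor libraries, and mouse 3 was the lowest of both groups. Ranges that do not overlap in this comparison were found for 32.2% of all genes tested. The log2 fold change was 0.43 (SE 0.13, edgeR adjusted p 0.0229, higher in 4 of 4 mice). This call rested on single libraries. Among the WT CD34+ libraries, leaving out that of mouse 1 (log2 0.42, adjusted p 0.051), mouse 2 (0.42, 0.05001) or mouse 4 (0.37, 0.0774) ended it. So did leaving out the WT CD34- library of mouse 3 (0.38, 0.0708), the whole of mouse 2 (0.43, 0.0791) and the whole of mouse 4 (0.38, 0.107).

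Under N1-AcSpd, Atp13a2 stood at 3.67, 4.97, 4.67 and 5.41 CPM in progenitors of mice 1 to 4. In HFSCs it stood at 5.94, 5.06, 6.93 and 6.93 CPM. The groups overlapped, because the HFSC value of mouse 2 lay below the progenitor value of mouse 4, but each mouse had the higher value in its HFSCs. The log2 fold change was 0.41 (SE 0.13, edgeR adjusted p 0.0282), and it was no longer called when the fit held the 2 compared groups alone (0.42, adjusted p 0.0642). Leaving out the N1AcSpd CD34- library of mouse 1 (0.31, 0.0797) or mouse 3 (0.41, 0.0577) also ended the call, as did leaving out the N1AcSpd CD34+ library of mouse 3 (0.35, 0.0795) or mouse 4 (0.35, 0.0819). The same held for the whole of mouse 1 (0.33, 0.131), mouse 3 (0.35, 0.115) and mouse 4 (0.43, 0.0684). Averaged over both conditions, a comparison added after the data were seen that called 44.8% of all genes tested, Atp13a2 was higher by 0.42 on the log2 scale (SE 0.093, edgeR adjusted p 0.00206), and it stayed under 0.05 with any 1 library or mouse left out (highest adjusted p 0.0149). Here and in the averages below, the fit had no term for mouse, so libraries of 1 mouse counted as separate although only 4 mice were used. With mouse as a block this call was kept. By group mean, Atp13a2 ranked in the order N1AcSpd CD34+ (6.21 ± 0.898 CPM, SD, n = 4), WT CD34+ (6.18 ± 0.762), N1AcSpd CD34- (4.68 ± 0.738) and WT CD34- (4.58 ± 0.367). The 2 CD34+ groups differed by less than their spread, and so did the 2 CD34- groups.

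Atp13a3 showed the opposite order. In WT CD34- it was measured at 5.67, 4.597, 5.15 and 4.51 CPM in mice 1 to 4. In WT CD34+ it stood at 4.44, 3.84, 3.09 and 2.88 CPM. Every HFSC library lay below every progenitor library, although the gap between the highest HFSC library (mouse 1) and the lowest progenitor library (mouse 4) was narrow. The log2 fold change was -0.49 (SE 0.14, edgeR adjusted p 0.0184, lower in 4 of 4 mice). The call was lost with library totals in place of TMM scaling (-0.37, adjusted p 0.0554) and after thinning each library to the size of the smallest (-0.35, adjusted p 0.104). Thinning, here and below, was 1 random draw, and the spread over repeated draws was not tested. Leaving out the WT CD34- library of mouse 1 (-0.42, 0.058) or the WT CD34+ library of mouse 3 (-0.44, 0.0505) or mouse 4 (-0.41, 0.0565) ended it too, as did leaving out the whole of mouse 3 (-0.41, 0.119) or mouse 4 (-0.44, 0.0794).

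Under N1-AcSpd, Atp13a3 stood at 5.40, 3.90, 5.24 and 4.51 CPM in progenitors and at 4.27, 3.98, 4.78 and 3.82 CPM in HFSCs. The groups overlapped, and in mouse 2 the HFSC value was slightly above the progenitor value. With a log2 value of -0.18 (SE 0.14, edgeR adjusted p 0.396) the difference did not pass the test, and its 95% interval ran from -0.49 to 0.13. Averaged over both conditions it was -0.33 (SE 0.10, adjusted p 0.015). This averaged call was lost when the whole of mouse 3 (-0.30, 0.0757) or mouse 4 (-0.30, 0.065) was left out and with library totals (-0.22, 0.0893). By group mean, Atp13a3 ranked in the order WT CD34- (4.98 ± 0.542 CPM, SD, n = 4), N1AcSpd CD34- (4.76 ± 0.694), N1AcSpd CD34+ (4.21 ± 0.424) and WT CD34+ (3.56 ± 0.715). Each neighbouring pair in this order differed by less than the larger SD of the pair.

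Within a library, Atp13a3 and Atp13a2 could be set against each other without scaling between libraries. UMIs were counted at the 3′ end and were not divided by length, so the ratio is compared between groups and not read as a ratio of levels. For every 100 Atp13a2 UMIs, the WT CD34- libraries held 97.1 to 127 Atp13a3 UMIs and the WT CD34+ libraries 41.8 to 69.6. The groups did not overlap, with a mean log2 difference of -0.93 (same sign in 4 of 4 mice). A two-sided exact permutation test gave p = 0.0286, the smallest that 4 against 4 libraries allow, and 0.0857 after Benjamini-Hochberg adjustment over 24 ratio tests, which does not pass. Between these groups the ranges of the 2 genes were already apart in opposite directions. The ratio could therefore not overlap, so this p was fixed by those ranges and adds no support to either call. Under N1-AcSpd the ratio ran from 78.6 to 147 in progenitors and from 55.1 to 78.7 in HFSCs, with mouse 2 going the other way by a small margin (log2 difference -0.58, exact permutation p = 0.0571, adjusted 0.125).

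Slc3a2 had the most UMIs of the 4 members, 3169 to 7797 a library, and the smallest adjusted p of the 4 in both cell type comparisons. It was measured at 214.1, 202.3, 218.2 and 197 CPM in WT CD34- and at 283.8, 264.6, 260.1 and 297.9 CPM in WT CD34+ (mice 1 to 4). Under N1-AcSpd it stood at 220.1, 189.5, 213.1 and 202.9 CPM in progenitors and at 289.4, 242.9, 238.9 and 314.3 CPM in HFSCs. In neither condition did the fractions overlap, and mouse 3 had the smallest difference between its fractions in both. The log2 fold change was 0.41 (SE 0.083, edgeR adjusted p 0.00171) in untreated cells and 0.39 (SE 0.083, adjusted p 0.00201) under N1-AcSpd. Both calls held under each alternative of scaling, filter, block, fit and tool and with any 1 library or mouse left out, with adjusted p of at most 0.0176 and 0.0198. Among all genes tested, 25.6% were called with the same sign in both conditions. By group mean, Slc3a2 ranked in the order WT CD34+ (277 ± 17.5 CPM, SD, n = 4), N1AcSpd CD34+ (271 ± 36.6), WT CD34- (208 ± 9.94) and N1AcSpd CD34- (206 ± 13.3). The 2 groups of a fraction differed by less than their spread.

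Slc18b1 was counted with only 16 to 40 UMIs a library. It was measured at 1.07, 1.98, 0.693 and 1.13 CPM in WT CD34- and at 1.14, 1.43, 1.19 and 2.05 CPM in WT CD34+. The fractions overlapped and mouse 2 had the higher value in progenitors (log2 0.27, SE 0.30, edgeR adjusted p 0.581, 95% interval -0.39 to 0.92). This value moved from 0.017, with the whole of mouse 4 left out, to 0.598, with the whole of mouse 2 left out. Under N1-AcSpd it stood at 0.907, 1.21, 0.646 and 1.19 CPM in progenitors and at 1.34, 1.88, 1.41 and 1.53 CPM in HFSCs. Here the fractions did not overlap and 4 of 4 mice had the higher value in HFSCs, yet the test was not passed (log2 0.63, SE 0.30, adjusted p 0.128), and the value was 0.37 after thinning to the smallest library. In N1-AcSpd cells 34.4% of all genes tested had ranges that do not overlap and 33.3% were called. With mouse as a block Slc18b1 was called (log2 0.67, adjusted p 0.034). Averaged over both conditions it was not called (log2 0.45, SE 0.21, edgeR adjusted p 0.105), but it was with mouse as a block (0.49, 0.0232), with library totals (0.57, 0.0459) and when the WT CD34- library of mouse 2 (0.61, 0.0172) or the whole of mouse 2 (0.62, 0.0483) was left out. By group mean, Slc18b1 ranked in the order N1AcSpd CD34+ (1.54 ± 0.24 CPM, SD, n = 4), WT CD34+ (1.45 ± 0.42), WT CD34- (1.22 ± 0.543) and N1AcSpd CD34- (0.987 ± 0.265). No neighbours in this order differed beyond their spread.

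The spread of each member between mice was set beside the spread that counting alone would give. For Slc3a2 the spread between mice, as a coefficient of variation, was 4.78% to 13.5% by group, while counting alone would give 1.37% to 1.53%. For Slc18b1 it was 15.6% to 44.6%, and counting alone would give 18.7% to 20.01%. It lay below counting error in N1AcSpd CD34+ (15.6% against 18.7%) and above it in each other group, up to 44.6% against 20.01% in WT CD34-. The ATPases lay between, with Atp13a2 at 8.02% to 15.8% against 9.12% to 10.3% from counting and Atp13a3 at 10.1% to 20.1% against 9.04% to 12.4%. For Slc3a2 the spread between mice was thus well above counting error, and for the ATPases it lay near counting error in some groups and above it in others, such as Atp13a3 in WT CD34+ (20.1% against 12.4%). Pooled over 4 libraries, Slc18b1 in WT CD34- came to 1.15 CPM with an exact 95% Poisson interval of 0.934 to 1.41 that covers counting error only.

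N1-AcSpd itself moved no member past the test. In progenitors, edgeR called 0 of 4 members, against 0.614% of all genes tested. In HFSCs it called 0 of 4, against 0.325%, and as a mean over both fractions 0 of 4, against 4.86%. At an unadjusted p under 0.05, 0 of 4 members passed in each of these comparisons, against 13.6%, 13.2% and 20.7% of all genes tested, and DESeq2 called 0 of 4 in each.

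The bounds on these treatment effects differ by gene. For Slc3a2 the 95% interval of the log2 fold change ran from -0.19 to 0.17 in progenitors and from -0.21 to 0.15 in HFSCs. For Atp13a2 it ran from -0.26 to 0.32 in progenitors and from -0.28 to 0.29 in HFSCs. For Slc18b1 it was wide, from -0.95 to 0.37 in progenitors and from -0.58 to 0.73 in HFSCs, so these data bound its change only loosely. The largest treatment estimate among the better counted members was that of Atp13a3 in HFSCs, at 0.24 on the log2 scale (SE 0.14, edgeR adjusted p 0.509, higher in 3 of 4 mice), which ran from 0.12 without mouse 3 to 0.37 without the WT CD34+ library of mouse 1. Mouse 1 went the other way, with 4.44 CPM without and 4.27 CPM with N1-AcSpd, and mouse 3 differed most, with 3.09 CPM without and 4.78 CPM with N1-AcSpd.

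The interaction asks whether the cell type effect differed between untreated and N1-AcSpd cells. It called 0 of 4 members and 0% of all genes tested by edgeR, with 0 members and 799 genes (4.19%) at an unadjusted p under 0.05, while DESeq2 called 72 genes and 0 members. Atp13a3, called in untreated cells and not under N1-AcSpd, had an interaction of 0.31 on the log2 scale (SE 0.20, unadjusted p 0.148, 95% interval -0.13 to 0.75, same sign in 4 of 4 mice). After thinning it was 0.09, and with single libraries or mice left out it ran from 0.21 to 0.43. A difference between its cell type effects in the 2 conditions was therefore not shown. The interactions of Atp13a2 and Slc3a2 were -0.024 (SE 0.19) and -0.017 (SE 0.12), and that of Slc18b1 was 0.37 (SE 0.43), with 0.08 after thinning and 0.039 to 0.72 over the leave-out runs.

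**Figure D2:**
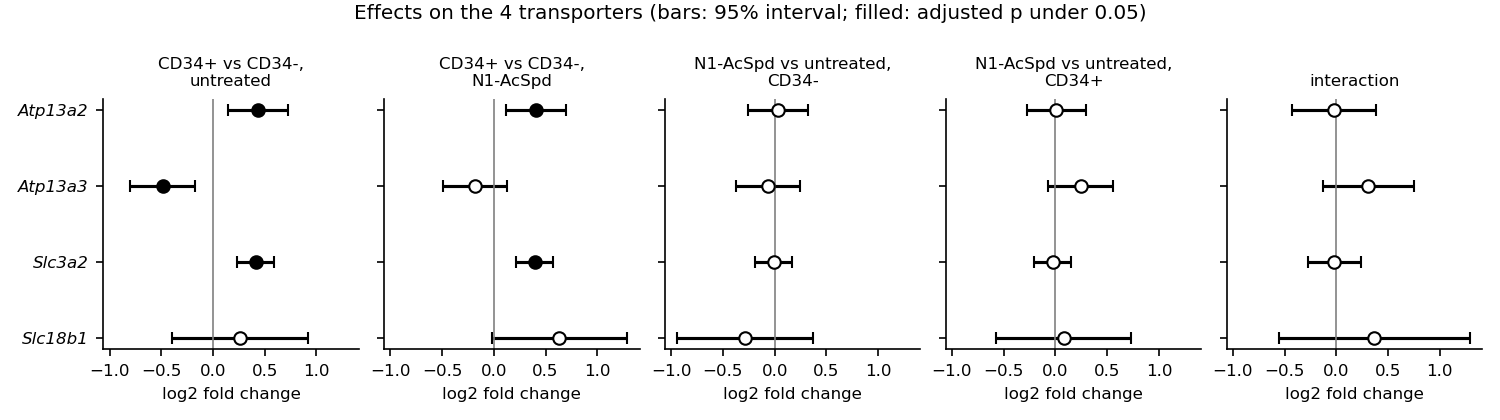
Log2 fold changes of the 4 transporters (x axis) in 5 comparisons (panels), with 95% intervals as bars and filled points where the edgeR adjusted p was under 0.05. Filled points occur only in the 2 cell type panels, and every treatment and interaction interval includes 0.

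In transport the CD98 heavy chain acts in pairs with an SLC7 light chain, which moves the substrate, so the light chains were read beside Slc3a2. Of 6 light chain genes in the table, 5 were tested, the exception being Slc7a10 with 11 UMIs over all libraries. In both conditions edgeR called 2 of 5 higher in HFSCs and 0 lower, against 16.1% of all genes tested higher in untreated and 16.5% under N1-AcSpd, where 16.8% were lower. The list had a median log2 fold change of 0.50 in untreated cells (0.022 over all genes) and 0.27 under N1-AcSpd (-0.0068 over all genes).

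Slc7a6, the y+LAT2 chain that exchanges cationic for neutral amino acids, ran from 8.44 to 11.1 CPM in WT CD34- and from 17.7 to 22.03 CPM in WT CD34+. Under N1-AcSpd it ran from 8.93 to 11.3 CPM and from 19.6 to 22.5 CPM. The fractions were far apart in both conditions (log2 0.98, SE 0.096, edgeR adjusted p 4.26e-06, and 1.01, SE 0.096, 2.99e-06).

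Slc7a8, the LAT2 chain for neutral amino acids, was measured at 1.25, 1.21, 0.779 and 1.89 CPM in WT CD34- and at 4.15, 3.84, 4.06 and 6.88 CPM in WT CD34+. Under N1-AcSpd it stood at 1.15, 1.28, 1.25 and 2.25 CPM in progenitors and at 3.56, 3.75, 3.99 and 7.69 CPM in HFSCs. Mouse 4 was the highest in all 4 groups, and the fractions did not overlap in either condition (log2 1.88, SE 0.34, edgeR adjusted p 0.000749, and 1.67, SE 0.33, 0.0013).

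The other 3 light chains did not pass the test. Slc7a5, the LAT1 chain for large neutral amino acids, ran from 22.4 to 28.2 CPM in WT CD34- and from 19.8 to 23.5 CPM in WT CD34+ (log2 -0.28, SE 0.15, edgeR adjusted p 0.19). It was called with mouse as a block (-0.28, adjusted p 0.0301) and with the compared groups alone (-0.28, 0.0457). Slc7a11, the cystine and glutamate exchanger xCT, ran from 3.26 to 5.06 CPM and from 3.64 to 4.77 CPM in the same groups (log2 -0.14, SE 0.16, adjusted p 0.6). Slc7a7 had 6 to 19 UMIs a library and a log2 value of 0.50 (SE 0.34, adjusted p 0.307). Under N1-AcSpd the log2 values of Slc7a5, Slc7a11 and Slc7a7 were -0.094, -0.34 and 0.27, with adjusted p of 0.718, 0.129 and 0.623, and Slc7a11 was called with mouse as a block (-0.33, 0.0148).

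Each light chain was also set against the heavy chain within a library. For every 100 Slc3a2 UMIs, Slc7a5 contributed 11.1 to 13.2 UMIs in WT CD34- and 6.69 to 9.02 in WT CD34+, without overlap (mean log2 difference -0.69, 4 of 4 mice). Slc7a6 contributed 3.87 to 5.49 and 6.55 to 7.62 (log2 0.57), and Slc7a8 contributed 0.357 to 0.962 and 1.45 to 2.31 (log2 1.499). Each of these 3 had a two-sided exact permutation p of 0.0286, the smallest possible, and 0.0857 after adjustment over the 24 tests, so none passes. Under N1-AcSpd the differences were 0.63 for Slc7a6 and 1.27 for Slc7a8 (both exact p = 0.0286, adjusted 0.0857), and -0.51 for Slc7a5, where the fractions overlapped (exact p = 0.114, adjusted 0.229). Slc7a11 per Slc3a2 was lower in HFSCs by a log2 difference of -0.54 in untreated cells (exact p = 0.0571, adjusted 0.125) and of -0.72 under N1-AcSpd (exact p = 0.0286, adjusted 0.0857). None of these passes after adjustment. In untreated cells Slc3a2 itself was at 0.41 and Slc7a11 at -0.14 by the fit across all genes. The ratio thus moves with Slc3a2 as well as with the light chain. In progenitors, Slc7a11 per 100 Slc3a2 UMIs ran from 1.61 to 2.32 without and from 2.36 to 3.32 with N1-AcSpd (log2 0.43, exact p = 0.0286, adjusted 0.0857). By the fit across all genes, Slc7a11 in progenitors had a treatment effect of 0.41 (SE 0.16, edgeR adjusted p 0.274), which was not called.

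**Figure D3:**
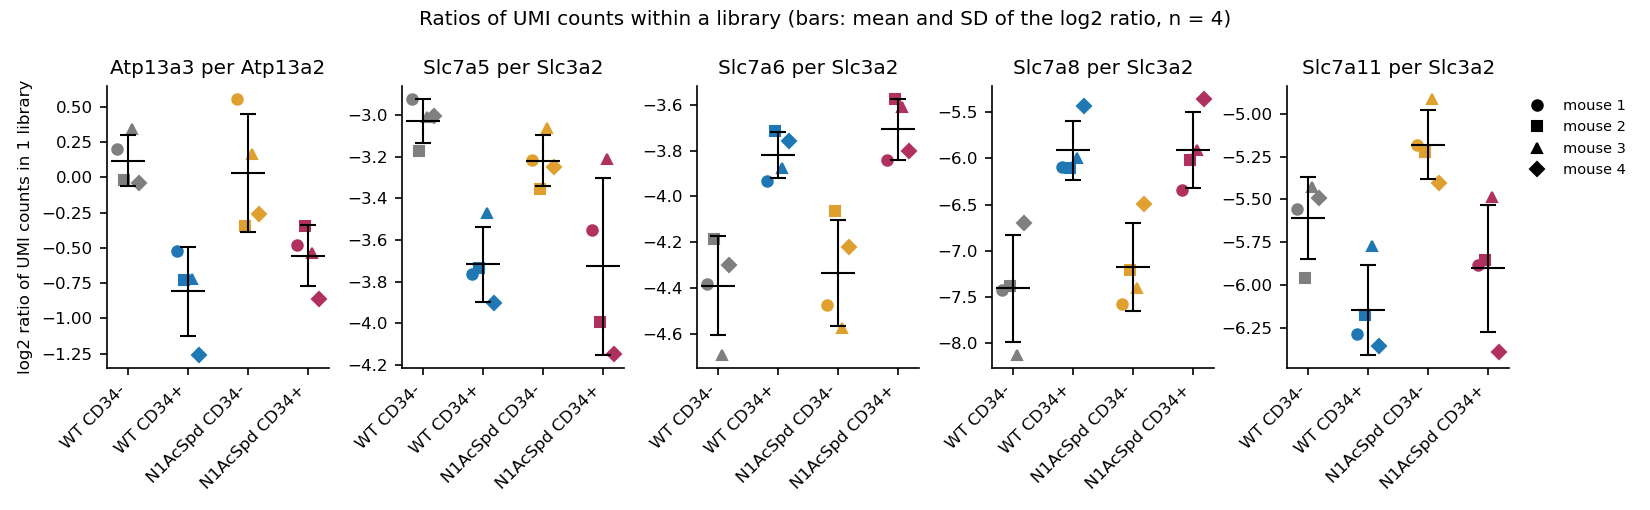
Log2 ratios of UMI counts of 2 genes in the same library (y axes) in the 4 groups (x axis), for Atp13a3 per Atp13a2 and for 4 light chains per Slc3a2; points are libraries with 1 symbol per mouse and bars give the mean and SD (n = 4). In untreated cells the CD34+ libraries lie below the CD34- libraries for Atp13a3 per Atp13a2 and Slc7a5 per Slc3a2 and above them for Slc7a6 and Slc7a8 per Slc3a2, with no overlap.

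Among the other P5-type ATPases, Atp13a4 differed most between the fractions. It had 12 to 44 UMIs a library in WT CD34- and 3 to 6 in WT CD34+, or 1.38, 0.766, 1.90 and 1.89 CPM against 0.227, 0.274, 0.325 and 0.154 CPM. Under N1-AcSpd it stood at 2.56, 1.21, 2.05 and 1.60 CPM in progenitors and at 0.557, 0.455, 0.552 and 0.704 CPM in HFSCs. The fractions did not overlap in either condition (log2 -2.58, SE 0.34, edgeR adjusted p 6.32e-05, and -1.70, SE 0.32, 0.000826). In HFSCs all 4 N1-AcSpd libraries lay above all 4 untreated libraries, as 6.81% of all genes tested were apart in that comparison, but the treatment effect of 1.19 (SE 0.34, adjusted p 0.175) was not called. Atp13a1, a P5A ATPase of the endoplasmic reticulum that handles membrane proteins, gave log2 values of -0.083 and -0.053 (adjusted p 0.535 and 0.713). Atp13a5 had 1 UMI over all libraries and was not tested. Atp13a3 and Atp13a4 were thus both lower in untreated HFSCs while Atp13a2 was higher.

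Of the further carriers and uptake factors reported to move polyamines, 3 passed the filter on low counts and were tested, while Slc47a1 and Slc12a8 had 18 and 23 UMIs over all libraries and were not. Of the 3, edgeR called 1 higher, 1 lower and 1 in neither direction in each condition. Over all genes tested, 16.1% were higher and 16.1% lower in untreated HFSCs, and 16.5% and 16.8% under N1-AcSpd. Gpc1, a heparan sulphate proteoglycan, ran from 11.1 to 13.5 CPM in WT CD34- and from 9.09 to 10.97 CPM in WT CD34+ (log2 -0.23, SE 0.091, edgeR adjusted p 0.0676), and it was called when the N1AcSpd CD34+ library of mouse 1 (-0.24, 0.0469) or the WT CD34+ library of mouse 2 (-0.28, 0.0445) was left out. Under N1-AcSpd its log2 value was 0.014 (adjusted p 0.944). Cav1, the caveolin of caveolar endocytosis, was higher in HFSCs in both conditions (log2 0.31, SE 0.072, edgeR adjusted p 0.00432, and 0.46, SE 0.072, 0.000216). Slc7a1, the CAT1 carrier for arginine and other cationic amino acids, was lower (log2 -0.43, SE 0.11, adjusted p 0.0104, and -0.36, SE 0.11, 0.0252). Its untreated call was lost when the whole of mouse 1 was left out (-0.40, 0.0733). Its call under N1-AcSpd was lost with library totals (-0.24, 0.105), with the compared groups alone (-0.34, 0.108) and when the N1AcSpd CD34+ library of mouse 2 (-0.30, 0.0763) or mouse 4 (-0.27, 0.0719) or the N1AcSpd CD34- library of mouse 3 (-0.29, 0.0825) was left out. Leaving out the whole of mouse 1 (-0.43, 0.0532), mouse 2 (-0.33, 0.111) or mouse 4 (-0.31, 0.0876) ended it as well.

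**Figure D4:**
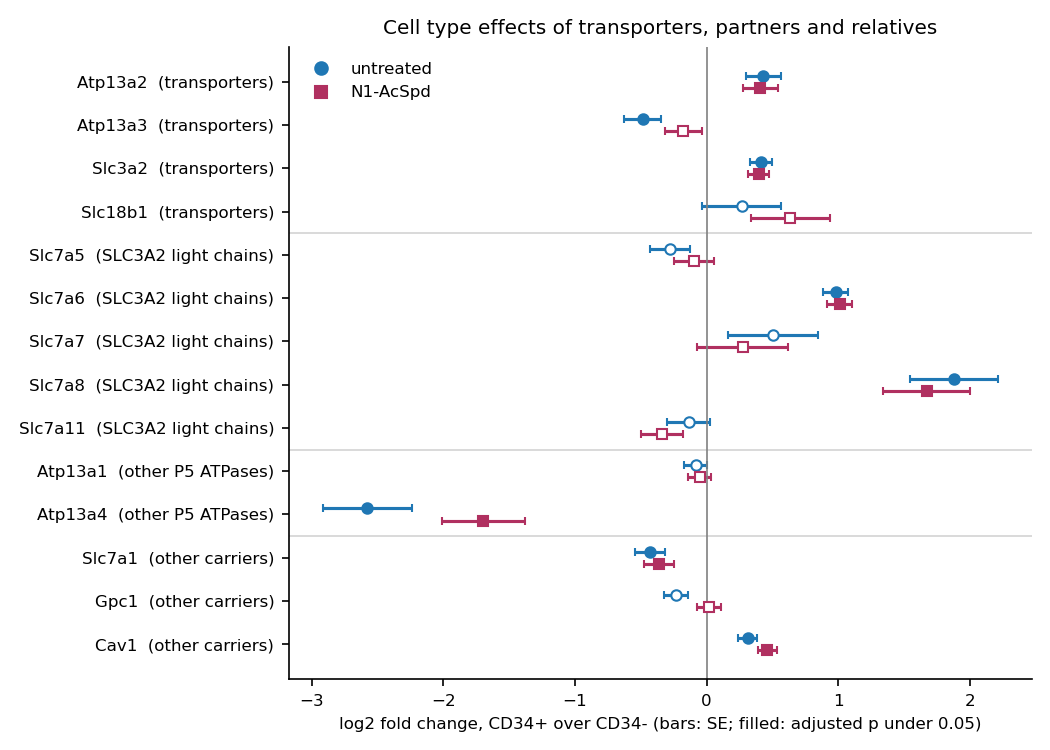
Log2 fold changes of HFSCs over progenitors (x axis) in untreated (circles) and N1-AcSpd cells (squares) for the 4 transporters, the 5 tested SLC3A2 light chains, 2 other P5 ATPases and 3 other carriers; bars give the SE and filled symbols mark an edgeR adjusted p under 0.05. Values run from -2.58 for Atp13a4 to 1.88 for Slc7a8 in untreated cells, with Atp13a2 and Slc3a2 at 0.43 and 0.41.

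The transporters were also read beside the rest of polyamine metabolism. Antizymes block polyamine uptake and send ornithine decarboxylase to the proteasome, and antizyme inhibitors act against them, so a count over both has no single direction. Together they gave 3 of 4 tested genes higher in untreated HFSCs and 0 lower, and 2 higher and 1 lower under N1-AcSpd. Over all genes tested, 16.1% were higher and 16.1% lower in untreated HFSCs, and 16.5% and 16.8% under N1-AcSpd, which is the background for these and the following lists. Oaz2 was called in both conditions (log2 0.61 and 0.60, SE 0.070, edgeR adjusted p 1.75e-05 and 1.92e-05). The untreated call of the inhibitor Azin2 (log2 0.53) held in 5 of 8 alternatives and 10 of 20 leave-out runs. The inhibitor Azin1 was the gene lower under N1-AcSpd (-0.26). Its call was lost with library totals (-0.14, edgeR adjusted p 0.167) and with the compared groups alone (-0.24, 0.0604). Leaving out the whole of mouse 1 (-0.23, 0.101) or its N1AcSpd CD34+ library (-0.22, 0.0561) ended it too. Among 10 enzymes of polyamine synthesis and breakdown, 6 were lower and 1 higher in HFSCs in each condition, with medians of -0.38 and -0.37. Odc1, the ornithine decarboxylase that starts the pathway, had log2 values of -0.57 and -0.48 (SE 0.092, adjusted p 0.000343 and 0.000984). Smox, which oxidises spermine, had -0.82 and -0.60 (SE 0.13, adjusted p 0.000261 and 0.00208).

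N1-AcSpd did move genes next to the transporters. As a mean over both fractions, Sat1, the enzyme that acetylates spermidine and spermine, rose by 0.53 on the log2 scale (SE 0.086, edgeR adjusted p 0.00558, 4 of 4 mice). Amd1, which supplies the aminopropyl donor for spermidine synthesis, was at -0.29 (SE 0.043, adjusted p 0.00396, 4 of 4 mice). The same average for the members was 0.02 for Atp13a2 (SE 0.093), 0.089 for Atp13a3 (SE 0.10, from 0.013 to 0.15 over the leave-out runs and 0.24 after thinning), -0.019 for Slc3a2 (SE 0.058) and -0.11 for Slc18b1 (SE 0.21). The same comparison also called Cav1 lower (-0.25, SE 0.051, edgeR adjusted p 0.0157, 4 of 4 mice), a call lost when the whole of mouse 1 (-0.21, 0.12), mouse 2 (-0.23, 0.125) or mouse 3 (-0.25, 0.0877) was left out. It called the antizyme inhibitor Azin1 lower (-0.29, SE 0.05, adjusted p 0.00712, 4 of 4 mice), a call lost when the whole of mouse 1 (-0.30, 0.0687) or mouse 2 (-0.30, 0.0628) was left out. Of the 7 differentiated keratinocyte markers, 2 were called higher and 0 lower in this comparison, against 4.86% of all genes tested called in either direction. Their median was 0.25, against -0.0076 over all genes, and their summed levels by group are given above. Sat1, like these markers, was lower in HFSCs (-0.71 and -0.86), and their part in its rise was not tested.

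Atp13a2 acts in lysosomes, and a list of 14 lysosomal genes gave 3 higher and 2 lower in HFSCs in each condition, shares near those over all genes, with medians of -0.0045 and -0.0025. Hexa, a subunit of beta-hexosaminidase, was higher (log2 0.72 and 0.93, SE 0.12 in both, edgeR adjusted p 0.000387 and 4.18e-05), and so was Lamp2, a protein of the lysosomal membrane (0.34 and 0.31, SE 0.051, adjusted p 0.000215 and 0.000318). Ctsl, the protease cathepsin L, was lower (-0.32 and -0.44, SE 0.051, adjusted p 0.000307 and 1.51e-05). Slc3a2 and some of its light chains are known as genes raised when amino acids run short. Of 9 genes of that response, 0 were higher and 2 lower in HFSCs in each condition, the latter again near the share over all genes. Their medians were -0.23 and -0.25, against 0.022 and -0.0068 over all genes. The part of this response in the level of Slc3a2 was not tested.

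The genes whose levels most resembled each member over the 16 libraries were named by Pearson's r on log2(CPM + 1), among 9356 or 9357 genes averaging 50 or more counts. The points share libraries, depth and groups, so r is a description. The genes were picked for a high r in these same libraries. Their r after the group means were taken out is therefore also raised by that choice and adds no support. For Atp13a2 they were Gyg (0.935), Sdc2 (0.922) and Med28 (0.911), and for Slc3a2 they were Dgcr6 (0.962), Prodh (0.949) and Cpe (0.948). Dgcr6 and Prodh lie next to each other on opposite strands, and whether they share tags was not tested. For Atp13a3 they were Smox (0.846), Gpr35 (0.841) and Naca (0.84), and for Slc18b1 they were Egfr (0.853), Hoxb7 (0.824) and Mbnl1 (0.821). After the group means were taken out, r was 0.842, 0.798 and 0.782 for the Atp13a2 genes, 0.817, 0.764 and 0.765 for the Slc3a2 genes, 0.768, 0.639 and 0.722 for the Atp13a3 genes, and 0.836, 0.834 and 0.814 for the Slc18b1 genes. Among the members, Atp13a2 and Slc3a2 had r = 0.72 over the 16 libraries and 0.11 within groups, and Atp13a2 and Atp13a3 had -0.53 and -0.086. Atp13a3 and Slc18b1 had -0.61 and -0.58.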

How the data were processed

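Single-molecule tag counts per gene were analysed for 16 libraries from 4 mice. Per the methods of the study, the tools behind the file were FLEXBAR for splitting by barcode, Kallisto for placement of read 2 (mm10), BEDTools for gene assignment and an R script that removed duplicate UMIs. The values the authors deposited are raw counts. The submitters' processing notes name kallisto 0.45.0 and FastQC 0.11.7. The annotation release and use of strand are not given in the sources used here. Symbols and positions came from GENCODE on GRCm38 (62 of 32989 identifiers unmatched, 0.116% of counts), and 156050 empty cells were read as 0.

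Genes averaging 5 or more counts entered edgeR 4.0.16 (R 4.3.3), with TMM scaling, 1 mean per group and 12 residual degrees of freedom, at a Benjamini-Hochberg adjusted p under 0.05. Tests were two-sided, and the SE was the log2 fold change over the square root of F. Ratios of 2 genes within a library were added after seeing the data. The members and lists were chosen with earlier results of these data known. All members were named, any tested gene of a list of up to 10, and otherwise genes among the 3 smallest adjusted p in each direction. The fit was tested on simulated data.

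The labels give 1 animal to each replicate number, so numbers pair the libraries. Deviations from group means correlated across genes, between libraries of 1 mouse, at 0.028 on average (-0.099 to 0.139, 24 pairs). No 2 libraries of a group agreed within sampling noise. Alternatives were DESeq2 1.42.0 size factors, library totals, no filter, filterByExpr, mouse as a block, compared groups alone, thinning by 1 random draw, DESeq2 and leaving out each library or mouse.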

Additional observations from a re-analysis of the deposited data

Results flagged for a closer look

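Of 44 groups of 4 libraries examined, no group of a transporter and 4 groups of light chains had a library far from the others. In groups of 4, a library was picked out when its gap to the next value took up nearly the whole range of the group, which chance gives in about 1 of 20 groups. Mouse 4 stood apart for Slc7a8 in WT CD34+ (6.88 CPM against 3.84 to 4.15), N1AcSpd CD34- (2.25 against 1.15 to 1.28) and N1AcSpd CD34+ (7.69 against 3.56 to 3.99), so 1 animal was high in 3 separately sorted groups. Mouse 3 stood apart for Slc7a11 in WT CD34+ (4.77 CPM against 3.64 to 3.67).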

How the results depend on the processing

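With 1 fit of 4 libraries a group, the calls of Atp13a2, Atp13a3 and Slc18b1 depend on single libraries or settings, and that of Slc3a2 does not within the alternatives run. Slc18b1 had the fewest UMIs of the 4 members, and the part of depth in its spread was not tested. Treatment effects near 0 carry no stable sign. The cause of each shift below was not tested.

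When library totals replaced TMM, the median over genes went from 0.022 to 0.14 in untreated and from -0.0068 to 0.11 in N1-AcSpd cells, and 4861 of 6623 and 4792 of 6696 called genes were higher in HFSCs, against 3059 of 6123 and 3147 of 6346 with TMM. Atp13a3 was then at -0.37 (untreated) and -0.22 (both conditions), uncalled, and Slc18b1 at 0.57 (both conditions), called. Slc7a5 under N1-AcSpd turned to 0.022, Atp13a1 to 0.032 and 0.064, Azin1 in untreated cells to 0.0024 and Lamp1 in untreated cells to 0.025.

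After thinning, Atp13a3 in untreated cells was at -0.35, uncalled. Treatment effects in CD34- cells turned to -0.012 (Atp13a2), 0.19 (Atp13a3) and 0.00071 (Slc3a2), that of Slc18b1 in CD34+ cells to -0.071, and the Atp13a2 interaction to 0.047. With the compared groups alone, Atp13a2 under N1-AcSpd was at 0.42, uncalled. With mouse as a block, Slc18b1 was called at 0.67 under N1-AcSpd and at 0.49 over both conditions, Slc7a5 at -0.28 in untreated cells and Slc7a11 at -0.33 under N1-AcSpd, and the block changed no other call of a gene named in the text.

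Genes called for treatment in CD34- cells went from 117 to 35 with no filter, 349 with the block, 0 with the compared groups alone, 558 with DESeq2, 48 after thinning and 2593 at an unadjusted p, and to 4 to 157 without single libraries or mice. In CD34+ cells they went from 62 to 35 with no filter, 152 with the block, 23 with the compared groups, 423 with DESeq2 and 2505 unadjusted, and to 3 to 73 without single libraries or mice. Over both fractions they went from 925 to 445 with no filter, 1551 with the block, 1585 with DESeq2 and 3952 unadjusted, and to 175 to 1062 without single libraries or mice. For the interaction 0 became 72 with DESeq2, 799 unadjusted and 0 to 11 without single libraries or mice.

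Without single libraries or mice, log2 cell type effects ranged from 0.37 to 0.50 (Atp13a2) and -0.61 to -0.41 (Atp13a3) in untreated cells and from 0.31 to 0.52 (Atp13a2) under N1-AcSpd. Over both conditions they ranged from -0.40 to -0.28 (Atp13a3) and 0.33 to 0.62 (Slc18b1). Treatment effects ranged in CD34- cells from -0.044 to 0.17 (Atp13a2), -0.13 to 0.019 (Atp13a3), -0.043 to 0.029 (Slc3a2) and -0.49 to 0.033 (Slc18b1). In CD34+ cells they ranged from -0.13 to 0.11 (Atp13a2), -0.11 to 0.029 (Slc3a2) and -0.0399 to 0.31 (Slc18b1). Over both fractions they ranged from -0.071 to 0.11 (Atp13a2), -0.058 to 0.0091 (Slc3a2) and -0.20 to 0.056 (Slc18b1). Interactions ranged from -0.13 to 0.097 (Atp13a2) and -0.095 to 0.047 (Slc3a2). Under N1-AcSpd, Slc7a5 ranged from -0.21 to 0.029, Slc7a7 from -0.14 to 0.54, Azin2 from -0.076 to 0.27 and Gpc1 from -0.067 to 0.11, with -0.000198 by DESeq2.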
